A study of Homo sapiens with 44 samples.

Results

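Of 407383 peaks of accessible chromatin measured in the human colon fibroblast line Ccd18-Co, 1482 were strong in unstimulated cells, lay outside the deposited promoter and exon classes and stayed near their unstimulated level with each of 10 cytokines. They are called flat peaks here. A strong peak is one classed as Distal or Intronic in the deposited table whose unstimulated mean, over 4 libraries, reached 15 per Mb, where coverage per Mb is the read coverage of the 500-base peak divided by the library's summed coverage over all peaks in megabases. A flat peak is a strong peak whose mean log2(coverage per Mb + 0.5) differed from the unstimulated mean by less than 0.35 in either direction for every cytokine. The flat peaks were 23.4% of the 6327 strong Distal or Intronic peaks and came from 350926 Distal or Intronic peaks in all. They were chosen by measured coverage in these same libraries, so their small changes are a description and no test of stability. The remaining 4845 strong peaks, which passed the limit for at least 1 cytokine, are used for comparison.

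The libraries were made by ATAC-seq, which reads out open chromatin through adaptors that a transposase inserts into it. Ccd18-Co cells, 1 fibroblast line derived from human colon, were moved to serum-free medium, which all groups share, and either left unstimulated or given 1 of IL-1β (0.1 ng/ml per the labels, although a lower dose also appears in the study's text), TNF, IL-17A, IL-6, oncostatin M (OSM), IL-22, IL-13, IFNα, IFNγ or TGF-β1 (10 ng/ml each). Each of the 11 groups had 4 libraries. Since the sources used here do not say that the 4 came from separate cultures, p-values measure the spread between these libraries, which may be technical. Library totals lay between 148.8 Mb (IL-6 replicate 4) and 823.1 Mb (IFNα replicate 2), and no pair of libraries held identical values.

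The cell line was checked against marker genes through the strongest promoter-class peak of each gene in unstimulated cells. Of 12 fibroblast genes 10 had such a peak, with a median of 8.60 per Mb and a range from 0.915 (LUM) to 24.3 (COL1A1), and VIM (2.14) and PRRX1 (3.74) were also low. The 4 smooth muscle genes ran from 1.08 (DES) to 37.0 (LMOD1). Of 6 epithelial genes only KRT8 had a promoter-class peak (4.60 per Mb), of 5 leukocyte genes only ITGAX (1.34), and the 4 endothelial genes lay between 0.545 and 1.92. The fibroblast genes THY1 and DCN also had no promoter-class peak in the table, so a missing peak does not show closed chromatin.

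Accessible sites away from promoters are mostly enhancers, which bind combinations of transcription factors, and insulators, which bind CTCF and help fold the genome into loops. In fibroblasts many enhancers carry the palindrome bound by AP-1, dimers of the FOS and JUN families, often beside sites for TEAD factors, the DNA-binding partners of YAP. Promoters, especially those in CpG islands, instead tend to carry sites for SP and KLF zinc-finger factors, ETS factors, NFY and NRF1. Cytokines act on this landscape through other factors, among them NF-κB for IL-1β and TNF, STAT proteins for interferons and the IL-6 family, and SMAD proteins for TGF-β1.

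The central 240 bases of 8 flat peaks are given as examples, and windows without a match to their marked motifs were passed over. All are from the plus strand of hg38, 5′ to 3′. The first pair are the strongest flat peaks within 2 kb of a transcription start site annotated in GENCODE v44 that overlap no annotated UTR, with capitals marking GGGCGG (SP and KLF factors) and CCAAT (NFY) on either strand. The CIC peak (window chr19:42268859-42269098) lay in an intron, 274 bases from a start site, and the ANKRD55 peak (window chr5:56123879-56124118) in an intron, 1673 bases from one.
CIC: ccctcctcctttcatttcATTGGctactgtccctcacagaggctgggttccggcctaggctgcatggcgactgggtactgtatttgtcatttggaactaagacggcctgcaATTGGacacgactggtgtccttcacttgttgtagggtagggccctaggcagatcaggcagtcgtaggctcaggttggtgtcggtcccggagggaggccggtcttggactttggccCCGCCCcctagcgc
ANKRD55: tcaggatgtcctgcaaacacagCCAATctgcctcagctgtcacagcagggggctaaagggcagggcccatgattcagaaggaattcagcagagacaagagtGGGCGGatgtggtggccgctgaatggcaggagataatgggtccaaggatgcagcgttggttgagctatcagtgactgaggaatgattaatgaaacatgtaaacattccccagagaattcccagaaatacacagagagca

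The next 4 lay over 2 kb from any annotated start site, and capitals mark TGANTCA (AP-1) and GGAATG (TEAD) on either strand. AZIN2 (window chr1:33099390-33099629) and UMODL1 (window chr21:42040480-42040719) are among the 10 strongest flat peaks, and both lay in introns. LINC00545 (window chr13:30865725-30865964) and LRRFIP1 (window chr2:237687709-237687948) are among the 5 with the smallest largest change, and only AP-1 matches are marked in them. The AZIN2 window holds a TEAD match and no AP-1 match, while each of the other 3 holds 1 AP-1 match. That each window holds a match was fixed by the choice of windows. The FABP6 and LINC01819 peaks, also among the 5 with the smallest largest change and over 2 kb from a start site, held no AP-1 match.
AZIN2: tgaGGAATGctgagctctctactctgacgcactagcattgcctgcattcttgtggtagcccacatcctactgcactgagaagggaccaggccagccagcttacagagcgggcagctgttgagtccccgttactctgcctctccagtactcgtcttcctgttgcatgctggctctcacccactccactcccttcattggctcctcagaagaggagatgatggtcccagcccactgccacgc
UMODL1: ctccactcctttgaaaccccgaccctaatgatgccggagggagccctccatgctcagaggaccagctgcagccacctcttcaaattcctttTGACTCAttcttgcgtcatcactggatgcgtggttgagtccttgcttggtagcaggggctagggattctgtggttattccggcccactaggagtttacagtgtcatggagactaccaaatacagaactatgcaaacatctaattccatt
LINC00545: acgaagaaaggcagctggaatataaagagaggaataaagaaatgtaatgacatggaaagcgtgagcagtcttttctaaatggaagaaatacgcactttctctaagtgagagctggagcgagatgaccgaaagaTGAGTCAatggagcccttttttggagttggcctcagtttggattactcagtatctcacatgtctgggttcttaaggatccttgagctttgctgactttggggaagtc
LRRFIP1: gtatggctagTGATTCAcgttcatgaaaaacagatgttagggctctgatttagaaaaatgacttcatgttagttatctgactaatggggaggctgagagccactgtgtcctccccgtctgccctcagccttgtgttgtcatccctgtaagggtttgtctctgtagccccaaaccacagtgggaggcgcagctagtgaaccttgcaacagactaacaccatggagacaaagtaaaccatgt

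The last pair hold the CTCF core motif, which is marked in capitals. They are among the 5 strongest flat peaks with that motif. The CTR9 peak (window chr11:10735763-10736002) was intergenic, 9979 bases from a start site, and the ERC1 peak (window chr12:949838-950077) lay in an intron, 263 bases from one.
CTR9: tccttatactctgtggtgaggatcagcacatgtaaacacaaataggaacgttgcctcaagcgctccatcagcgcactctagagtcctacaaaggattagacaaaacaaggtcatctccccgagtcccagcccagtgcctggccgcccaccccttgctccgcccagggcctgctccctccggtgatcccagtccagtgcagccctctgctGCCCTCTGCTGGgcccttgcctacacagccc
ERC1: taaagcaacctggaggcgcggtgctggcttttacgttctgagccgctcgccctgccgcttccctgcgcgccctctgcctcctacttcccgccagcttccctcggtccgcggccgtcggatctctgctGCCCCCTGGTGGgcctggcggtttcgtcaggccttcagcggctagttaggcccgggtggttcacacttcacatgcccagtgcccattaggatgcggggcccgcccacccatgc

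The strongest flat peaks were named by the table for genes of varied function. The highest was the CIC peak (chr19:42268728-42269228, Intronic), in the gene of the transcriptional repressor Capicua. Its coverage was 107.8, 104.4, 107.7 and 103.3 per Mb in the 4 unstimulated libraries, and the 40 cytokine libraries lay between 82.0 and 127.6 per Mb with a median of 102.4. The TGF-β1 libraries were the lowest group, at 91.6, 83.5, 82.0 and 82.0 per Mb, and none of them overlapped the unstimulated libraries. The IL-13 libraries were the highest, at 121.8, 107.5, 120.2 and 115.7 per Mb, and overlapped the unstimulated range only through 1 library. The largest log2 change of this peak was -0.32 with TGF-β1, so a strong peak inside the limit could still have separated groups.

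KAT6B, the gene of a histone acetyltransferase, named the next peak (chr10:74826108-74826608) at 92.1 ± 3.56 per Mb (SD, n = 4 unstimulated libraries), followed by TEDC1 (chr14:105490705-105491205) at 81.2 ± 4.51. ANKRD55 (chr5:56123748-56124248) had 75.7 ± 7.54, AZIN2 (chr1:33099259-33099759), whose product acts in polyamine metabolism, 75.4 ± 6.09, and the microRNA gene MIR148A (chr7:25862333-25862833) 72.7 ± 3.79. Of the 10 strongest, the MIR148A peak was the only one classed as Distal. The remaining 4 were named for HNRNPUL1, an RNA-binding protein, MXD1, a partner of MAX that opposes MYC, SELENOM, a selenoprotein, and UMODL1, and lay between 65.7 and 72.5 per Mb. In 5 of these 10 peaks the TGF-β1 group had the lowest mean, and in the other 5 it was the IL-1β group. The UMODL1 peak was the flattest of the 10, with a largest log2 change of 0.18, which was with TGF-β1.

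The AZIN2 peak, the strongest one over 2 kb from a start site, showed how much the libraries of a group could differ. Its coverage was 78.8, 79.6, 76.8 and 66.4 per Mb unstimulated and 93.3, 83.8, 90.1 and 98.9 with IL-13. The IL-13 libraries all lay above the unstimulated ones. With OSM it was 91.4, 97.0, 88.8 and 87.8, also all above, and with IL-17A 87.4, 84.2, 77.8 and 61.9, a range that covered the unstimulated one. The largest log2 change of the peak was 0.28, with IL-13.

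The flattest peak by the rule was a weaker one. The LINC00545 peak (chr13:30865594-30866094), classed as Distal although GENCODE v44 places its centre in an intron, held 17.3, 17.2, 14.8 and 12.8 per Mb in the unstimulated libraries and between 11.3 and 20.3 per Mb in the 40 cytokine libraries. Its group means ran from 14.5 ± 1.00 per Mb with IL-1β to 16.7 ± 3.95 with IFNα (SD, n = 4 each), and every group overlapped the unstimulated one. Next came FABP6 (chr5:160164832-160165332, Distal, 23.8 ± 2.45 per Mb unstimulated), with a largest log2 change of 0.11, and LRRFIP1 (chr2:237687578-237688078, Intronic, 48.9 ± 3.46), LZTR1 (chr22:20981702-20982202, Intronic, 17.6 ± 0.588) and LINC01819 (chr2:43074978-43075478, Distal, 33.8 ± 2.46), each at 0.13. None of these 5 had a change called for any cytokine.

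**Figure D1:**
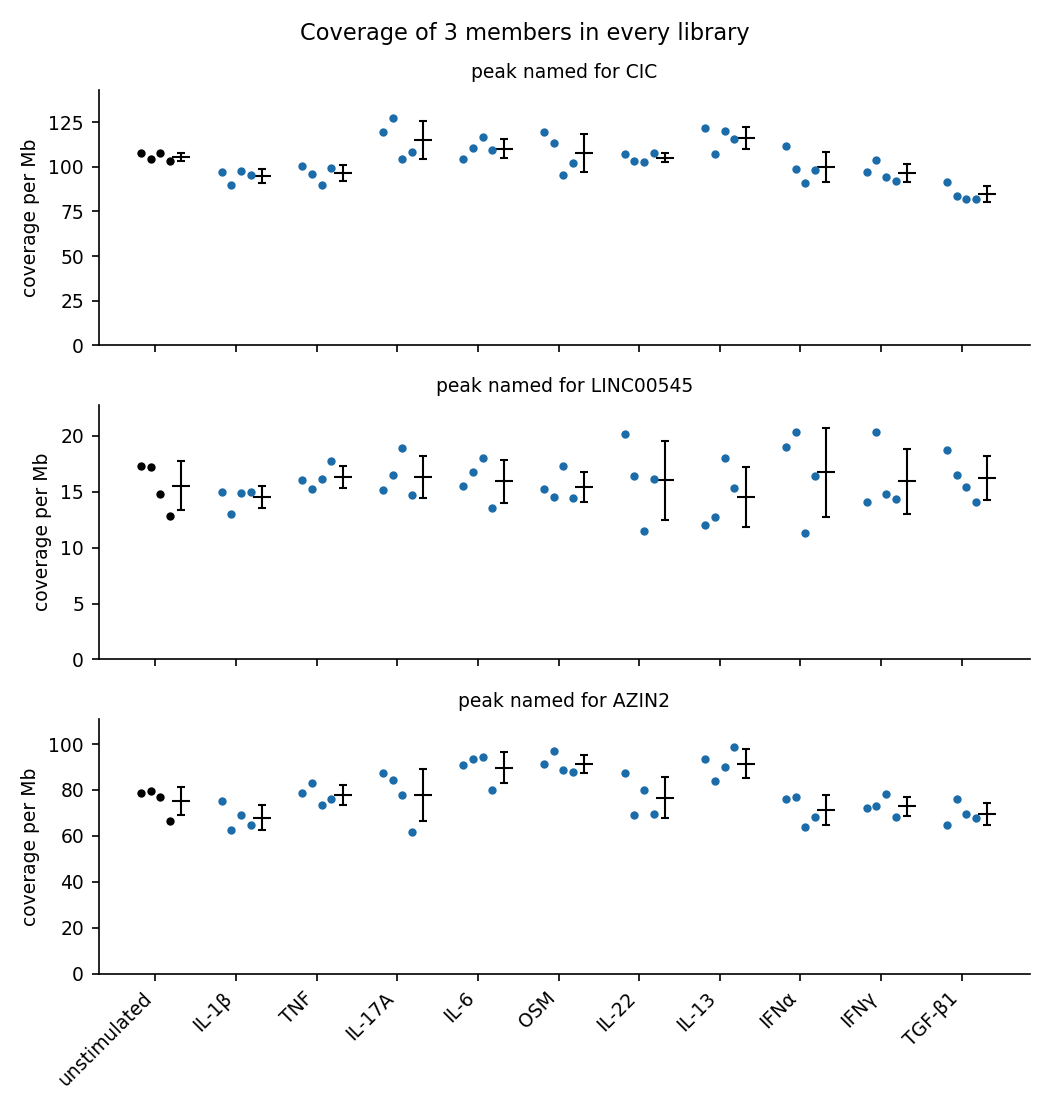
Coverage per Mb (vertical axes, from 0) of the peaks named for CIC, LINC00545 and AZIN2 in all 44 libraries by group (horizontal axis). Points are libraries (black, unstimulated; blue, cytokine), and the bars beside them give the mean and SD of the 4. The TGF-β1 libraries of the CIC peak lie below its unstimulated libraries, while every group of the LINC00545 peak overlaps the unstimulated one.

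The limits cut through a continuous range of values. At the coverage minimum, peaks named for MIR5787 (chr3:50237801-50238301) and PAM16 (chr16:4351142-4351642) were inside with 15.0 ± 1.38 and 15.0 ± 2.20 per Mb, and the TXN2 peak (chr22:36454968-36455468) with 15.0 ± 1.18 was outside, the difference being smaller than the rounding. At the limit on change, MIR5703 (IL-17A) and ITGB1 (TNF) were just inside and CCDC9 (TGF-β1) and TIGAR (IL-13) just outside, all at 0.35 after rounding. Of the flat peaks, 579 had a largest change of 0.30 to 0.35, 474 of 0.25 to 0.30 and 295 of 0.20 to 0.25, and only 17 of under 0.15. Among the other strong peaks, 1619 passed the limit for exactly 1 cytokine and 2 for 9 cytokines, and none passed it for all 10.

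A strong peak was flat more often the stronger it was. The share that was flat was 17.6% at 15 to 20 per Mb (532 of 3028), 25.8% at 20 to 30, 33.2% at 30 to 50 and 51.5% above 50 (68 of 132). Intronic peaks were flat in 25.0% of cases (988 of 3959) and Distal peaks in 20.9% (494 of 2368). By the same limits 49.0% of strong promoter-class peaks (2060 of 4207) and 43.6% of Exonic ones (540 of 1238) were flat. The median coverage of flat peaks was 22.8 per Mb, against 19.8 in the other strong peaks, and the median SD within groups was 0.170 against 0.192 on the log2 scale. Coverage, spread and flatness thus moved together, and the part of coverage and spread in the pattern was not tested.

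**Figure D2:**
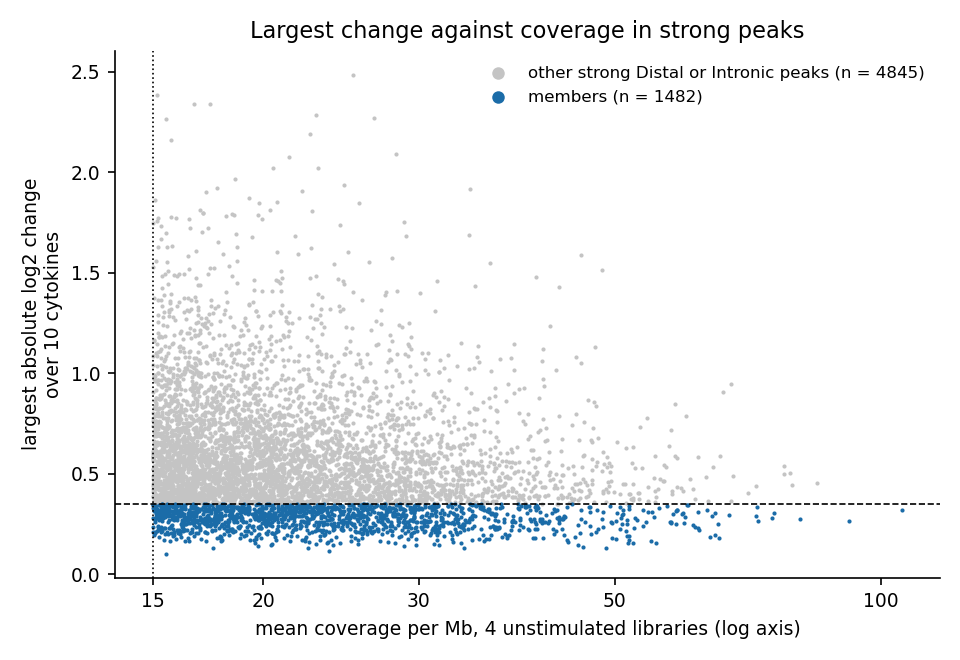
Largest absolute log2 change over 10 cytokines (vertical axis) against mean coverage per Mb in the 4 unstimulated libraries (horizontal log axis) for the 6327 strong Distal or Intronic peaks. The dashed line is the limit of 0.35 and the dotted line the minimum of 15 per Mb. Blue points are the 1482 flat peaks, which take up a growing share of the points toward the right.

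Although no group mean passed 0.35, the flat peaks did not centre on 0. With TGF-β1 their median log2 change was -0.17, with 1201 of 1482 below 0, and with OSM it was 0.11, with 1141 above 0. The medians for the other 8 cytokines lay between -0.08 (IL-1β) and 0.06 (IL-22). The largest change of a flat peak was most often the one with TGF-β1 (417 peaks), then with OSM (206), IL-13 (165) and IL-1β (140), and least often with IL-22 (61). Over all peaks the medians for these cytokines had the opposite sign, 0.12 with TGF-β1 and -0.21 with OSM. The other strong peaks moved to the same side as the flat ones, with medians of -0.26 with TGF-β1, 0.07 with OSM and -0.20 with IL-1β, so these directions are not particular to flat peaks. The same direction was seen in the share of all coverage that lay in flat peaks, which was 3.82 ± 0.0643% in unstimulated libraries, 4.11 ± 0.0986% with OSM and 3.48 ± 0.142% with TGF-β1 (SD, n = 4 each). The other strong peaks held 10.8 ± 0.305%, 11.5 ± 0.268% and 9.43 ± 0.311%. For the share in flat peaks, the 4 OSM libraries all lay above the unstimulated ones and the 4 TGF-β1 libraries all below them.

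The limit holds relative to the library total. With a composition factor taken over all peaks, only 515 strong peaks were flat, of which 451 were among the 1482. This factor is a trimmed mean and does not set the median change of all peaks to 0, which was -0.103 with OSM and 0.047 with TGF-β1. Of the 1482, 1432 to 1481 stayed within the limit for each of 8 cytokines, but 824 did for OSM, where their median change became 0.32, and 997 for TGF-β1, where it became -0.29. With factors taken over the 148332 peaks covered in every library the rule gave 1614 flat peaks, of which 1398 were shared. The values of both scalings are given for OSM and TGF-β1 because a change in strong peaks and a change of scale cannot be told apart here.

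**Figure D3:**
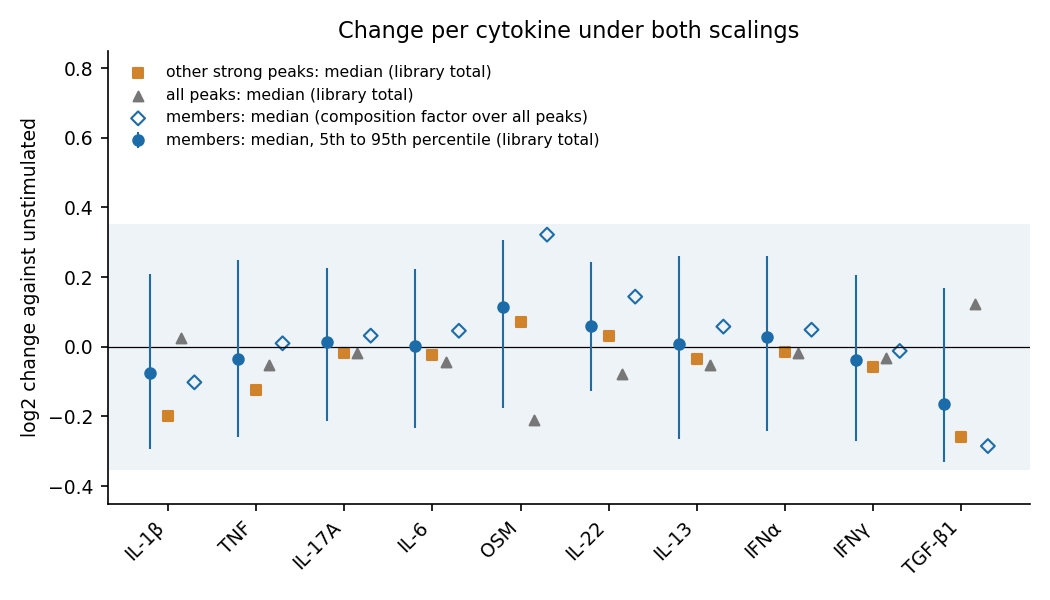
Median log2 change against unstimulated (vertical axis) per cytokine (horizontal axis) for flat peaks (filled circles, with lines from the 5th to the 95th percentile), other strong peaks (squares) and all peaks (triangles), scaled by library total, and for flat peaks with a composition factor over all peaks (open diamonds). The shaded band is the limit of 0.35. The open diamonds reach 0.32 with OSM and -0.29 with TGF-β1.

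The rule compares group means without their error, so each change was also fitted with limma across all 407176 tested peaks (log2 scale, composition factor over the peaks covered in every library, Benjamini-Hochberg adjusted p under 0.05). These are the contrasts that chose the flat peaks, so nothing is read from the counts. Called flat peaks numbered 25 with TGF-β1, 20 with IL-1β, 12 with TNF, 10 with OSM, 6 with IL-13, 5 with IFNα and 5 with IFNγ. None were called with IL-17A, IL-6 or IL-22 by limma, where 109, 127 and 67 of the 1482 had an unadjusted p under 0.05. Over all 407176 tested peaks, 26246, 35214 and 29094 had such an unadjusted limma p with these cytokines. Over all tested peaks the called share was 3.5% with TGF-β1, 3.5% with IL-1β, 4.36% with TNF, 2.84% with OSM, 1.61% with IL-13, 0.847% with IFNα, 1.75% with IFNγ, 0.0398% with IL-17A, 0.107% with IL-6 and 0.0361% with IL-22. With the composition factor over all peaks, 405 flat peaks were called with OSM, where 5.23% of all peaks were, and 209 with TGF-β1, where 3.96% were.

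Of the flat peaks 1413 (95.3%) were called for no cytokine, 57 for 1 and 12 for more, while 88.2% of all tested peaks and 21.7% of the other strong peaks were called for none. The median standard error of a flat peak was 0.141 at 15 to 20 per Mb and 0.0800 above 50. Among flat peaks at 15 to 20 per Mb, 0 of 532 were called for any cytokine, and at 20 to 30 per Mb 5 of 593. At 30 to 50 per Mb 35 of 289 were called, and above 50 per Mb 29 of 68 (42.6%). Of the 10 strongest flat peaks only the UMODL1 peak was called for no cytokine. Among peaks named below, COL6A2 was called for IL-1β and TGF-β1, MYOF for IL-1β and FOSL2 for OSM. The most calls for a single flat peak were 3, for a peak named TCIM (TNF, OSM and TGF-β1) and for 1 in MYO9B, an unconventional myosin gene (chr19:17079891-17080391; OSM, IFNα and IFNγ). The MYO9B peak had 62.1 ± 4.03 per Mb unstimulated and 77.1 ± 1.61 with IFNγ (SD, n = 4). The median 95% interval of a change was the estimate ± 0.245. All 10 intervals stayed inside ± 0.35 for 16 flat peaks, inside ± 0.5 for 616 and inside ± 0.7 for all 1482. For most flat peaks these data therefore leave room for a change beyond 0.35 with at least 1 cytokine.

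Membership also turned on single libraries. When each of the 44 libraries was left out and the rule applied again, the number of flat peaks ran from 1379 (without unstimulated replicate 1) to 1512 (without TGF-β1 replicate 4), and 606 of the 1482 were flat every time. Leaving out 1 unstimulated library, which enters all 10 differences, kept 80.4% to 83.3% of the flat peaks, and leaving out 1 cytokine library kept 90.8% or more.

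Despite their class, many flat peaks lay close to annotated start sites. At most 2 kb from a start site in GENCODE v44 were 45.4% of the flat peaks (673), against 29.1% of the other strong peaks (1408) and 19.2% of all Distal or Intronic peaks. Within 1 kb the shares were 40.4% and 22.6%. Strong peaks within 1 kb were flat in 35.3% of cases, and at greater distances the share was close to level, at 19.3% from 1 to 2 kb, 19.8% from 2 to 10 kb, 18.2% from 10 to 50 kb and 19.6% beyond. Some of the strongest flat peaks belonged here, among them CIC, KAT6B (55 bases from a start site), TEDC1 (110 bases) and MXD1 (402 bases). The class in the deposited table and the GENCODE v44 start sites therefore differ on what lies near a promoter. The other 809 flat peaks lay over 2 kb away, and 422 of them over 10 kb.

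Flat peaks within 2 kb were rich in G and C. Their median G+C content was 62.4%, against 55.8% in other strong peaks at that distance and 64.2% in the flat promoter-class peaks, and 63.3% of them (426) had a G+C content over 50% with an observed to expected CpG ratio over 0.6, against 34.7%. Over 2 kb the medians were 49.4% and 46.4%. The share of strong peaks that was flat was higher at higher G+C content at both distances, from 4.88% below 40% G+C to 43.7% at 60% and above within 2 kb (4 of 82 and 410 of 938), and from 11.9% to 33.9% over 2 kb (67 of 561 and 123 of 363). The part of base composition in the pattern was not tested. The shift with TGF-β1 was larger near start sites, with a median log2 change of -0.20 within 2 kb and -0.12 beyond (-0.35 and -0.22 in the other strong peaks), and 74 of 673 and 207 of 809 peaks above 0. With OSM the medians were 0.11 and 0.12.

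**Figure D4:**
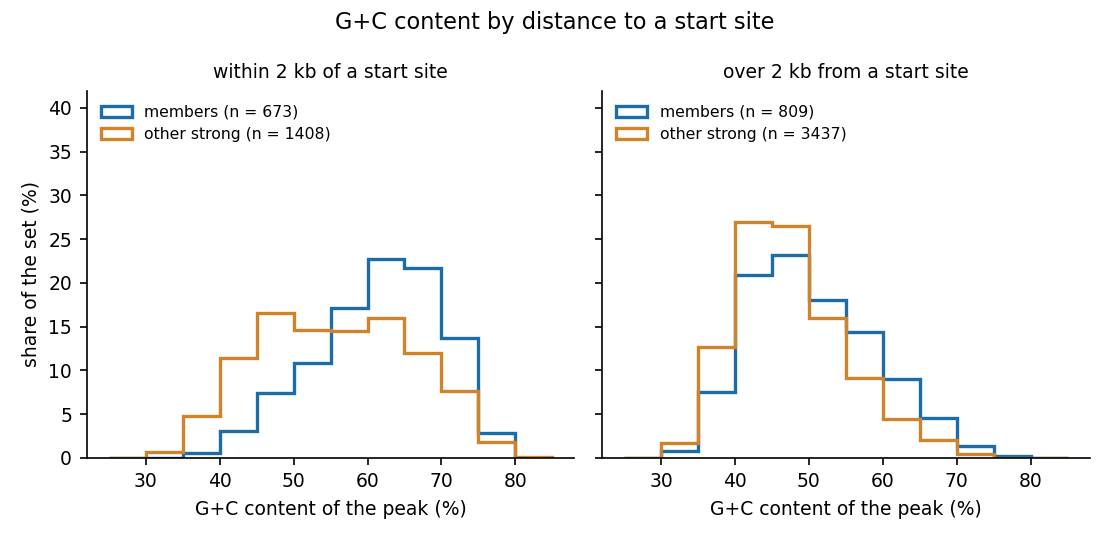
G+C content of the 500-base peak (horizontal axis, %) as a share of each set (vertical axis, %) for flat peaks (blue) and other strong peaks (orange), within 2 kb of a start site (left) and over 2 kb from one (right). The blue outline within 2 kb has its highest bins above 60%, while the outlines over 2 kb have their highest bins from 40 to 50%.

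Most matches to the promoter motifs were in higher shares of flat peaks at both distances. Matches were counted on both strands of the whole peak, and a match is a description of letters, not a bound site. Within 2 kb, GGGCGG (SP and KLF) was in 69.5% of flat peaks and 47.2% of other strong peaks, CGGAAG (ETS) in 32.7% and 19.9%, GCGCNNGCGC (NRF1) in 10.3% and 4.97%, TGACGTCA (the CRE bound by CREB and ATF factors) in 4.01% and 1.78%, and CCAAT in 52.7% and 44.6%. Among all Distal or Intronic peaks within 2 kb those shares were 24.4%, 11.1%, 1.61%, 0.572% and 45.6%. The flat promoter-class peaks held GGGCGG in 85.6%, CGGAAG in 47.9%, GCGCNNGCGC in 19.0% and CCAAT in 60.2%, so the flat Distal or Intronic peaks near start sites lay between the promoter class and the other strong peaks for each of these letters. Over 2 kb, GGGCGG was in 24.1% of flat peaks and 14.6% of other strong peaks, and CGGAAG in 10.8% and 8.0%. GCGCNNGCGC was in 1.48% and 0.378% there, TGACGTCA in 1.36% and 0.989%, but CCAAT in 44.9% and 46.8%. The GGGCGG share over 2 kb was 26.5% of peaks with a largest change under 0.25 and 11.8% at 1 or above. The comparisons of flat with other strong peaks were not split by base composition.

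AP-1 matches ran in opposite directions near and far from start sites. TGANTCA was in 48.0% of flat peaks and 48.6% of other strong peaks, a pooled difference close to 0. Within 2 kb it was in 25.0% of flat peaks (168 of 673; 7.82% in flat promoter-class peaks) and 35.5% of the others, but over 2 kb in 67.1% of flat peaks (543 of 809; 95% Wilson interval 63.8 to 70.3) and 54.0% of the others (1857 of 3437; 52.4 to 55.7), against 28.8% of all Distal or Intronic peaks at that distance. The intervals cover counting error only, and neighbouring peaks are not independent. A search over all 7-letter words, run without reference to a motif list, gave TGACTCA as the word with the largest excess in flat peaks over 2 kb, with 57.2% against 43.2%, while within 2 kb it was among the words with the largest deficit, with 20.7% against 28.8%. The match nearest the centre of the peak lay a median of 28.5 bases away in flat peaks over 2 kb and 38.5 in the others, and 23.7% and 16.9% of these peaks held more than 1 match.

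Over 2 kb the AP-1 share was lower among peaks with larger changes. It was 65.5% of peaks with a largest change under 0.25, 67.7% from 0.25 to 0.35, 61.8% from 0.35 to 0.5, 55.0% from 0.5 to 1 and 26.4% at 1 or above (105 of 398). At like coverage or base composition the order was the same, except that the shares were close above 50 per Mb. Strong peaks over 2 kb with a match were flat in 16.2% of cases at 15 to 20 per Mb and those without in 10.1%, and the shares were 25.6% and 14.8% at 20 to 30 per Mb and 35.2% and 27.2% at 30 to 50, while above 50 per Mb, with 33 and 29 peaks, they were 42.4% and 41.4%. Below 40% G+C the shares were 15.3% and 7.05%, from 40 to 50% 21.1% and 8.98%, from 50 to 60% 26.1% and 19.7%, and at 60% and above 39.7% and 30.6%.

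For some cytokines the AP-1 share of peaks beyond the limit differed with the direction of their change. Among strong peaks over 2 kb whose coverage was lower by 0.5 or more (log2), AP-1 matches were in 36.2% with IL-1β, 33.2% with TNF, 34.6% with OSM, 35.2% with TGF-β1 and 33.9% with IFNα. Among those whose coverage was higher by 0.5 or more they were in 76.9%, 73.2%, 63.8%, 75.2% and 60.5%, which is near or above the 67.1% of flat peaks. IL-13 had the reverse order, with 68.1% of the 361 lower peaks and 29.6% of the 152 higher ones. With IFNγ it was 58 of 116 lower and 51 of 91 higher peaks, with IL-17A 8 of 20 lower and 7 of 21 higher peaks, and with IL-6 43 of 68 lower peaks (63.2%). These groups were formed on measured changes that share the 4 unstimulated libraries, and no test is given.

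**Figure D5:**
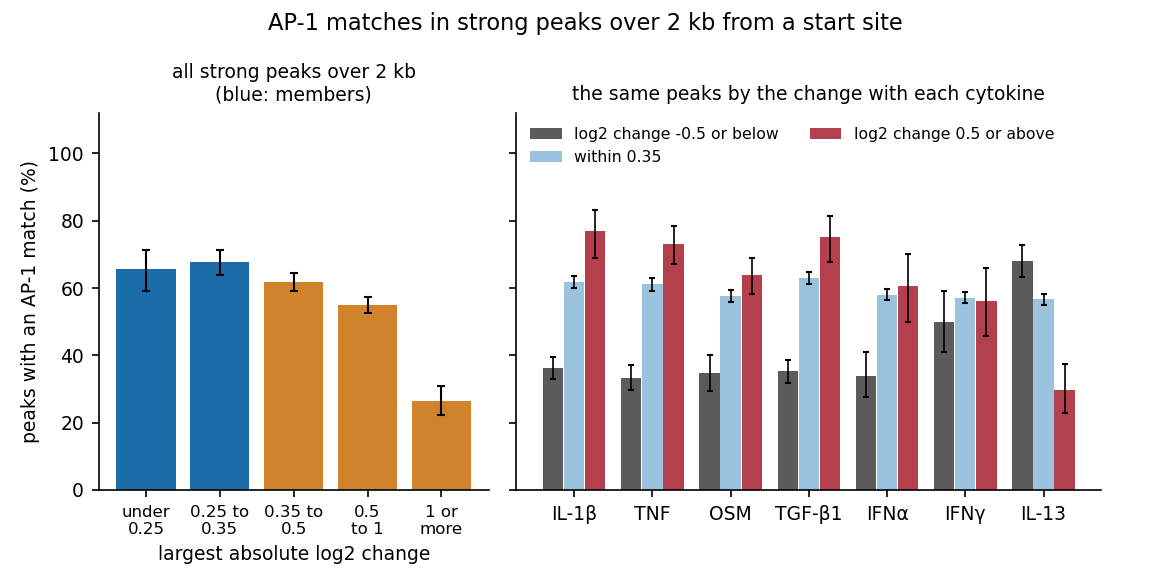
Share of strong peaks over 2 kb from a start site that hold TGANTCA (vertical axes, %), with 95% Wilson intervals. Left, by largest absolute log2 change over the 10 cytokines (blue, flat peaks; orange, other strong peaks). Right, by the log2 change with each of 7 cytokines (dark grey, lower by 0.5 or more; light blue, within 0.35; red, higher by 0.5 or more). The share is 26.4% at a largest change of 1 or above, and with IL-13 the dark grey bar is the highest of its 3.

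Several other motifs of fibroblast enhancers were in lower shares of flat peaks. Over 2 kb, GGAATG (TEAD) was in 37.2% of flat peaks and 39.9% of the others, TGTGGT (RUNX) in 33.4% and 37.9%, TTGCNNAA (C/EBP) in 24.4% and 31.6% and GTAAACA (FOX) in 10.9% and 15.2%. Letters bound by factors of the added cytokines were in somewhat lower shares of flat peaks over 2 kb. GAAANNGAAA (interferon-stimulated response element) was in 6.06% and 7.10%, TTCNNNGAA (STAT) in 14.8% and 16.7%, TTCNNNNGAA (STAT6) in 12.0% and 13.5%, and GTCTAGAC (SMAD) in 2 of 809 and 19 of 3437. The NF-κB motif, with 10 letters, was in 10.0% and 11.8% over 2 kb but in 22.3% and 19.5% within 2 kb. These words are short and most occur widely, so their presence in a flat peak says nothing of binding.

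The CTCF core motif was rare. It was in 21 of the 1482 flat peaks (1.42%, 95% Wilson interval 0.929 to 2.16) and 41 of the 4845 other strong peaks (0.846%, 0.624 to 1.15), and the intervals overlapped. Over 2 kb the shares were 1.36% (0.761 to 2.42) and 0.815% (0.564 to 1.17). Of all Distal or Intronic peaks at that distance 1.57% held it, which lies inside the interval of the flat peaks. None of the 68 flat peaks above 50 per Mb held it (95% Wilson interval up to 5.35%), and none of the 64 other strong peaks above 50 per Mb did (up to 5.66%). In Distal peaks it was in 12 of 494 flat peaks (2.43%) and 17 of 1874 others (0.907%), while in Intronic peaks the shares were 0.911% and 0.808%. A looser form, CCNNNAGNNGGC, with 12 positions like the core, was in 16.5% of flat and 10.8% of other strong peaks. However, its letters are rich in G and C, and it was also in more of the peaks near start sites (22.0% of flat peaks within 2 kb and 11.9% beyond). The 5 strongest flat peaks with the core were named MIR6071 (44.3 ± 2.14 per Mb), CTR9 (41.5 ± 2.45), ERC1 (29.2 ± 1.49), XPO4 (29.1 ± 3.30) and GMPR (26.0 ± 1.6), with largest log2 changes between -0.29 and 0.29, and none of them was called. The 5 strongest flat peaks without the core were the CIC, KAT6B, TEDC1, ANKRD55 and AZIN2 peaks already described.

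Flat peaks were spread over 1306 named genes, with 1162 of these holding only 1. SMAD3, which carries TGF-β signals to the nucleus, had the most, with 5 of its 11 strong peaks. Their unstimulated coverage ran from 25.8 to 34.5 per Mb. In order along the chromosome, the 5 SMAD3 peaks had log2 changes of -0.28, -0.29, 0.07, -0.19 and -0.26 with TGF-β1. The SMAD3 peak at chr15:67109516-67110016 was called for TNF (log2 change 0.34). UMODL1 and ADAMTS14, a protease that trims procollagen, had 4 each, which were all of their strong peaks, and MCFD2, a cargo receptor between the endoplasmic reticulum and the Golgi, had 4 of 5. The UMODL1 flat peaks spanned 16.6 to 65.7 per Mb, the widest range of these 4 genes. Among 17 genes with 3 were GLI2, a transcription factor of Hedgehog signalling (3 of 7 strong peaks), ADAMTS2, another procollagen protease (3 of 5), COL15A1, a basement membrane collagen (3 of 4), and TIMP2, an inhibitor of matrix metalloproteinases (3 of 4).

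Lists of genes with roles in fibroblasts were compared with the 23.4% of all strong peaks that were flat, and their shares ran from 7.69% to 26.3%. For extracellular matrix genes 13 of 71 strong peaks were flat (18.3%), in 10 genes. All 13 lay over 2 kb from a start site. The strongest was near the collagen VI gene COL6A2 (chr21:46049277-46049777, 60.4 ± 3.99 per Mb), with a log2 change of -0.35 with TGF-β1, followed by COL7A1 (chr3:48598570-48599070, 33.9 ± 1.37) and COL15A1 (chr9:99019385-99019885, 33.7 ± 2.77). For genes of the contractile and actin cytoskeleton 12 of 65 were flat (18.5%), led by PDLIM7 (29.2 ± 0.333) and ACTN1 (25.4 ± 3.11). Mesenchymal transcription factor genes had 6 of 39 (15.4%), with the strongest in GLI2 (chr2:120765819-120766319, 62.4 ± 2.52), TWIST2 (33.6 ± 2.53) and BNC2 (28.9 ± 3.38), regulators of mesenchymal identity. Genes activated by TEAD and YAP had 6 of 26 (23.1%), among them peaks named for MYOF (40.9 ± 3.08), NUAK2 (Distal, 28.9 ± 1.98) and AXL (26.2 ± 2.11). Stromal surface markers had 8 of 32 (25.0%), led by ENG (30.5 ± 4.28), CDH2 (29.6 ± 5.08) and ITGB1 (29.4 ± 1.04).

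Genes of cytokine responses also had flat strong peaks. For AP-1 factors 5 of 19 strong peaks were flat (26.3%), and the strongest were at FOSL2 (chr2:28392462-28392962, 41.2 ± 5.52 per Mb, log2 change 0.31 with OSM), FOSB (27.6 ± 2.87) and MAFF (22.5 ± 1.94). Among receptors of the added cytokines only 1 of 13 was flat (7.69%), in an intron of the OSM receptor gene OSMR (chr5:38872176-38872676), at 54.3 ± 5.06 per Mb with a largest log2 change of -0.26, with IFNγ. Cytokine-induced inflammatory genes had 4 of 22 (18.2%), near LIF (45.5 ± 3.08 for the stronger of a pair), a cytokine of the IL-6 family, CXCL1 (30.9 ± 1.05), a neutrophil chemokine, and NFKBIA (22.2 ± 3.85), the inhibitor of NF-κB. Interferon-induced genes had 2 of 10, in peaks named for TAP1 (Distal, 22.9 ± 2.05) and TAP2 (Intronic, 21.0 ± 2.56), genes of the peptide transporter of antigen presentation. Both peaks lay within 2 kb of a start site, which was not matched to the named gene. HOX genes had no strong Distal or Intronic peak. The lists were small, peaks were assigned to genes by the deposited name alone, and no list is said to differ from the whole.

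Many flat peaks had a peak that was called for a cytokine nearby. A peak called for at least 1 cytokine lay within 5 kb of 43.8% of flat peaks (649) and of 50.2% of other strong peaks (2432), and the median distance to the nearest called peak was 6815 and 4942 bases. Of the flat peaks 603 (40.7%) had no called peak within 10 kb, against 33.4% of the other strong peaks. Flat peaks had a mean of 8.28 peaks of any kind within 10 kb, of which 14.0% were called, against 17.8% around other strong peaks. Of all tested peaks 88.2% were called for no cytokine, so a called peak nearby also reflects how densely peaks lie. Another flat peak lay within 5 kb of 8.30% of flat peaks (123) and of 4.36% of the other strong peaks. By chromosome, the flat share of strong peaks ran from 18.8% on chromosome 4 (39 of 207) to 33.5% on chromosome 19 (92 of 275) and 37.8% on chromosome X (17 of 45).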

How the data were processed

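Bulk ATAC-seq was made from 44 Ccd18-Co libraries (11 groups of 4). The authors trimmed and aligned paired reads to hg38 with the ENCODE ATAC-seq pipeline, and the labels name MACS2 with no version. The deposited signal gives, for 407383 peaks of 500 bases, the total read coverage of a peak's bases in a library, with no scaling. How the deposited peaks were filtered is not given in the sources used here. The study's notes say that single outlying samples may have been left out of in vitro assays. No column lacked a sample (0 columns not mapped). Coverage follows whole reads rather than cut sites, and a read can count in part, so no count test was used.

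Members and lists were chosen with earlier results of these data known. Coverage was divided by the library total and, for limma 3.58.1 in R 4.3.3, by a composition factor (trimmed mean of log ratios over 148332 peaks covered in all libraries, trimming 30% of ratios and 5% of means at each end). After adding 0.5 and taking log2, which understates the change of low peaks, peaks with a log2 mean of -3 or below were left out, and 1 model with group as its term was fitted to all 44 libraries, with eBayes and a mean-variance trend. The fit was tested on simulated data. Library totals of 148.8 to 823.1 Mb set the precision. Intervals of shares are Wilson intervals at 95% and cover counting error only.

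Coordinates are those of the deposited table. All peaks lay inside the hg38 chromosome they name, and sequences and start sites were read from hg38 and GENCODE v44 with pysam 0.24.0. The peaks named are the 10 strongest members, the 5 with the smallest largest change, a pair on each side of each limit (1 of these is not named), the 5 strongest with and without the CTCF core, the 3 strongest of each gene list and genes with the most members. A peak that this rule also names is not reported here. Peaks called most often and the AP-1 comparison by distance and direction were chosen after their values were seen. The alternatives, including a composition factor over all peaks that was chosen after seeing the data, are given in the closing section.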

Additional observations from a re-analysis of the deposited data

Results flagged for a closer look

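In 10 of 119 groups of 4 libraries, 1 library lay apart from the other 3, its gap to the nearest exceeding the 95% critical value of Dixon's test. Chance alone gives about 1 in 20 such groups. Total coverage had such a library at 823 Mb with IFNα, 658 Mb with IFNγ and 727 Mb with TNF, each the highest of its group. In the CIC peak the highest TGF-β1 library stood at 91.6 per Mb. In the LINC00545 peak the lowest IL-1β library stood at 13.0 per Mb and the highest IFNγ library at 20.3 per Mb. Among unstimulated libraries, 1 stood apart as the highest in the ITGB1 peak just inside the limit on change (18.4 per Mb) and the TAP2 peak (24.8), and as the lowest in the COL1A2 peak (28.6) and the MAFF peak (19.6).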

How the results depend on the processing

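The number of flat peaks was set mainly by its limits and its scaling. It was 429 with a limit on change of 0.25, 3351 with 0.5, 2411 with a minimum of 10 per Mb, 357 with 30, and 515 with a composition factor over all peaks, an alternative chosen after seeing the data. Leaving out 1 library gave 1379 to 1512. With that composition factor the flat peaks called were 405 for OSM (5.23% of all tested peaks), 209 for TGF-β1 (3.96%), 4 for TNF (4.14%), 1 for IFNγ (1.57%) and 0 for IFNα (0.653%). With quality weights per library they were 73 for OSM (6.3% of all tested peaks), 21 for TNF (5.12%), 12 for IFNα (1.16%), 11 for IL-13 (1.6%), 10 for IFNγ (2.25%) and 1 for IL-6 (0.0535%). Scaling by library total alone gave 56 for TGF-β1 (3.59% of all tested peaks) and 0 for IFNα (0.79%). Median-of-ratios factors gave 6 for OSM (2.79%). Causes were not tested.

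Leaving out 1 library gave 10 to 30 calls for IL-1β (lowest without IL-1β replicate 2), 4 to 19 for TNF (without TNF replicate 2 and unstimulated replicate 3), 2 to 14 for OSM (lowest without unstimulated replicate 4), 0 to 11 for IL-13 (without unstimulated replicate 4 and IL-6 replicate 4), 0 to 8 for IFNα (without IFNα replicates 2 and 3), 2 to 9 for IFNγ (without IFNγ replicate 3 and IL-6 replicate 4), 8 to 29 for TGF-β1 (lowest without TGF-β1 replicate 4), 0 to 1 for IL-17A and IL-6, and 0 to 0 for IL-22. Without IL-6 replicate 4, the library of 148.8 Mb, 23 of all 407176 tested peaks were called with IL-6, against 436 in the main fit. Calls over all peaks with OSM were then 13984, against 11578. The CTCF core share, 1.42% by the main rule, was 0.56% at a minimum of 30 per Mb. At a minimum of 10 per Mb it was 2.49% (60 of 2411, Wilson interval 1.94 to 3.19). It was 1.86% with a limit on change of 0.25 and 1.34% with 0.5. In a shorter central window of each peak the share was 0.877%, and without 1 library it was 1.18% to 1.68%.

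By the criterion used, replicate numbers were not taken to pair the libraries, since 0 of 220 pairs with the same number had a correlation of deviations over 0.1 (median 0.002). However, 21 of 44 libraries correlated best with their own number, where 11 would by chance, which is a hint of pairing from the data and not from the design. With the replicate block the calls were 27 for TGF-β1 (3.58% of all tested peaks), 23 for IL-1β (3.55%), 13 for TNF (4.41%) and 12 for OSM (2.9%). The median interval of ± 0.245 limits what could be detected.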
